A study of Homo sapiens with 2 samples.

Results

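Ribosomal protein genes encode the proteins of the cytoplasmic ribosome, the particle that translates nuclear mRNA. They were taken from the deposited count table by symbol: every RPL and RPS gene with a number, including A, X and L forms, the stalk genes RPLP0, RPLP1 and RPLP2, and RPSA and FAU. This gave 86 genes of 60623 named rows, 53 of the large subunit and 33 of the small subunit, and GENCODE 29 lists all 86 as protein-coding. Of these, 83 reached a mean of at least 1 CPM (counts scaled to library size) over the libraries and were compared, 50 large and 33 small. The other 3 were RPL3L, RPL10L and RPL39L, paralogues that are described below. The genes lie on 21 chromosomes, with 12 on chromosome 19.

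A ribosome holds 1 copy of most of these proteins, so cells make them in matched amounts and degrade those left unassembled. Their mRNAs are short, abundant and mostly begin with a C followed by further pyrimidines, the terminal oligopyrimidine (TOP) motif. Through it mTOR signalling and the RNA-binding protein LARP1 set their translation and stability. Some family members have paralogues that can take their place in the ribosome or that act in its assembly.

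The RNA came from HCT116, a human line of epithelial cells derived from a colon carcinoma, with the genotype given as WT in both groups. The siControl culture received a non-specific siRNA and the siKAT7 culture an siRNA against KAT7, also called HBO1, a histone lysine acetyltransferase. Both were transfected with Lipofectamine, total RNA was taken with TRIzol, and each group had 1 library. The siRNA sequences and the time of harvest were not used here.

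The targeted gene was checked first. The siControl library had 442.94 expected counts of KAT7 and the siKAT7 library 287.22, which left 69.6% of the control level. The log2 ratio, always siKAT7 over siControl here, was -0.52 with a 95% counting interval of -0.74 to -0.31. The named genes summed to 23450331 and 23533186 expected counts. Of 10 colon epithelial markers 6 passed the filter, led by KRT8 at 5720 and 5871 CPM, whereas CDX1 was at 0 in both libraries. Of 12 markers of blood, endothelial and fibroblast cells 2 passed, CD68 and COL1A1, and PTPRC, PECAM1 and CDH5 were at 0. No difference below has a replicate check, no p-value was computed, and intervals cover counting error only. They treat reads as independent, although PCR copies of a molecule are not and no molecular tags are recorded in the counts. The intervals can therefore be too narrow even for counting error. In bulk RNA a change in the make-up of the culture and a change in RNA per cell cannot be told apart.

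The start of the mRNA is what most of these genes share in sequence, and it is shown for the pairs and the extremes on which the results turn. Each line gives 15 bases before the start and 15 bases from it on, 5′ to 3′ on the coding strand, from RefSeq on GRCh38.p14. Capitals mark a run of 5 or more C or T bases that begins with C at the first base. Where RefSeq lists several starts, the one with the longest run is shown. First come paralogues with their canonical partners.
RPL22, chr1:6199581-6199610, reverse strand: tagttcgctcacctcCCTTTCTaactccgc
RPL22L1, chr3:170870181-170870210, reverse strand: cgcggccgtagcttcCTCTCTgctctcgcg
RPL26, chr17:8383179-8383208, reverse strand: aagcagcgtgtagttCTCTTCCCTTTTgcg
RPL26L1, chr5:172958714-172958743, forward strand: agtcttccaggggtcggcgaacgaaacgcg
RPS27, chr1:153990747-153990776, forward strand: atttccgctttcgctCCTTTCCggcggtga
RPS27L, chr15:63157463-63157492, reverse strand: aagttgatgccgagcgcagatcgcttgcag
RPL36A, chrX:101390996-101391025, forward strand: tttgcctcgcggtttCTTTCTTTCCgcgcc
RPL36AL, chr14:49620612-49620641, reverse strand: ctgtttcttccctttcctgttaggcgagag
RPL7L1, chr6:42879601-42879630, forward strand: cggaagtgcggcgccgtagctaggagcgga

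The next lines give canonical members at the upper end of the log2 ratios (RPS29, RPL35, RPS9) and then at the lower end (RPS6, RPS3A, RPL6, RPL4).
RPS29, chr14:49598696-49598725, reverse strand: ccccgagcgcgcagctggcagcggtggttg
RPL35, chr9:124861943-124861972, reverse strand: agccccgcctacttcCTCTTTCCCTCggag
RPS9, chr19:54200843-54200872, forward strand: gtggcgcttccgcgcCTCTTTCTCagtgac
RPS6, chr9:19380222-19380251, reverse strand: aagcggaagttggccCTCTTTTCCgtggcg
RPS3A, chr4:151099613-151099642, forward strand: cgactcccacttccgCCCTTTTggctctct
RPL6, chr12:112409271-112409300, reverse strand: ggggagacggcgcgtgcactgtgttcctgg
RPL4, chr15:66504841-66504870, reverse strand: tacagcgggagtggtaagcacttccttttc

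Of the 69 members with a RefSeq start, 48 (69.6%) had the run, against 1404 of 27305 symbols in the same table (5.14%). Among canonical members 47 of 63 had it, and among paralogues 1 of 6, RPL22L1. The run was searched on the coding strand only and at the annotated first base only, so its absence says only that these letters are not at that position. A match describes the sequence and is no evidence of use. The 17 members with no entry included RPL3L, RPL5, RPL7, RPL8, RPL23, RPL23A, RPL30, RPL37, RPL39L, RPS2, RPS15A and RPS20.

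Ribosomal protein mRNAs made up a large share of each library and a larger one in siKAT7. They held 13.5% of all named-gene counts in siControl (exact binomial 95% interval 13.50% to 13.52%) and 15.2% in siKAT7 (15.21% to 15.24%). The difference was 1.72 percentage points. The large subunit went from 8.20% to 9.14% and the small subunit from 5.31% to 6.09%. Of the 100 genes with the highest mean CPM, 37 were members. Mitochondrially encoded genes, the other large block of counts, held 7.11% in siControl and 6.40% in siKAT7. With them left out of the total the members' shares were 14.5% and 16.3%, again 1.72 percentage points apart, and the ratio of the shares was 1.12 in place of 1.13.

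Levels of the 83 compared genes spanned a wide range within each library. In siControl they ran from 35.1 to 7718 CPM with a median of 1081, and in siKAT7 from 39.9 to 10357 CPM with a median of 1269. RPS2, a protein of the mRNA entry channel, was the most abundant, with 187837.48 counts in siControl against 234843.69 in siKAT7. The 5 members with the most counts, RPS2, RPL13, RPL13A, RPL8 and RPL3, together held 23.4% of member counts in siControl and 24.2% in siKAT7.

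**Figure D1:**
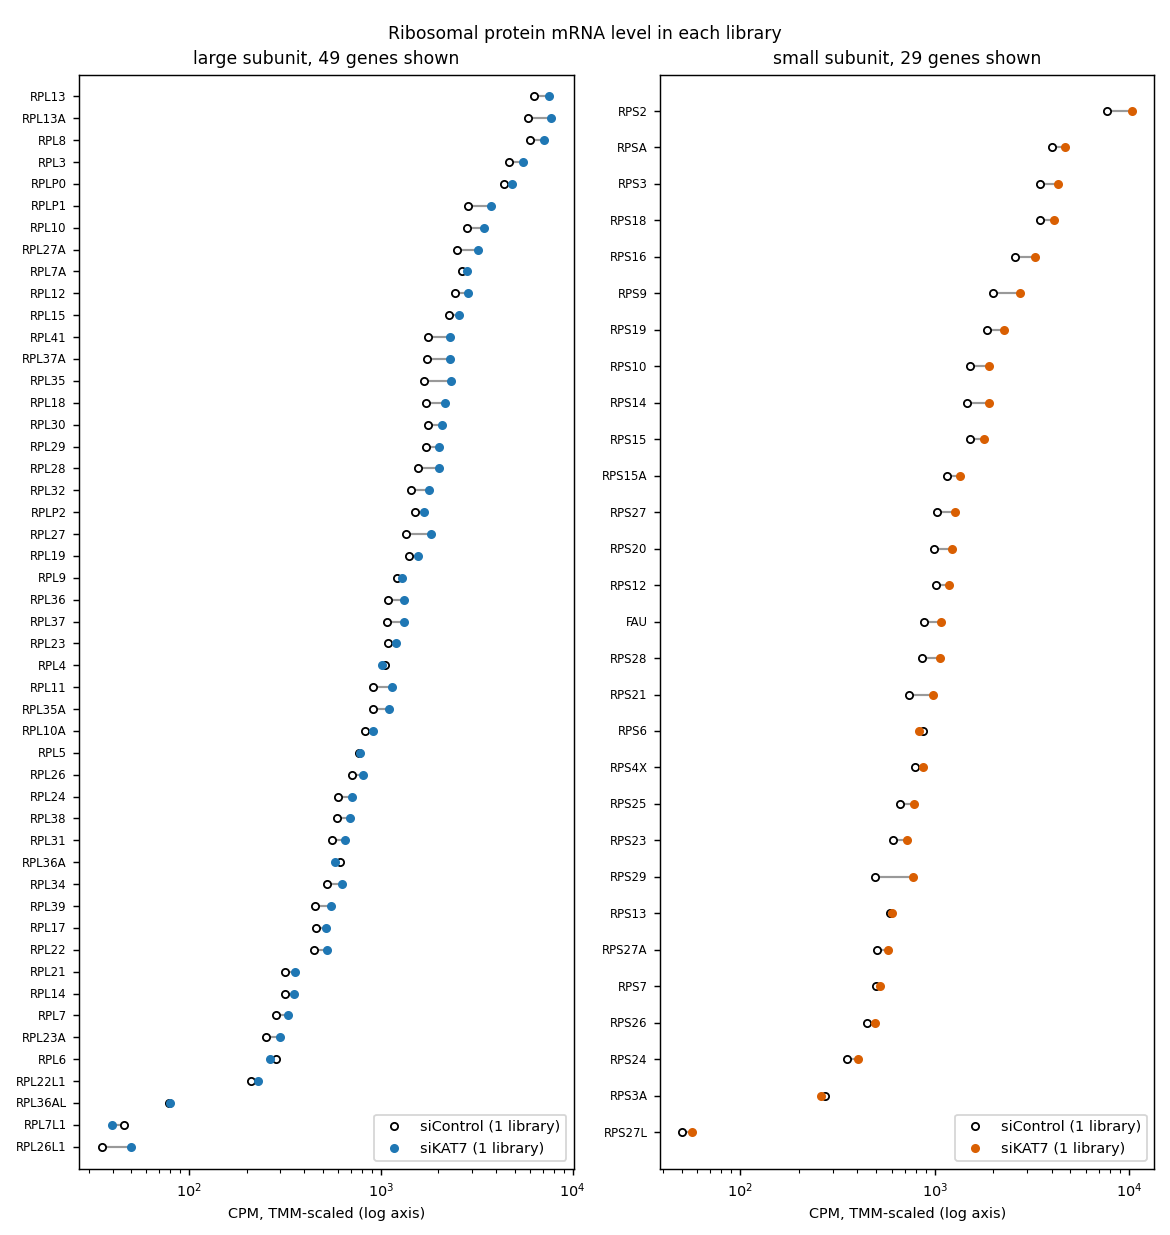
TMM-scaled CPM on a log axis for 78 of the 83 compared genes, open circles for siControl and filled circles for siKAT7 (1 library each), large subunit left and small subunit right, sorted by level. For 72 genes the filled circle lies to the right, and the paralogues RPL26L1, RPL7L1, RPL36AL and RPS27L sit at the bottom of both panels.

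Levels can be set beside each other between genes only per length. Per kilobase of the deposited gene length, the highest in the large subunit were RPL13A (8828 and 11718 CPM per kilobase in siControl and siKAT7) and RPL8 (6219 and 7394). In the small subunit they were RPS2 (8167 and 10959) and RPS18 (6318 and 7488). Some deposited lengths are far above the coding length, such as 7573 bases for RPL37 with 291 coding bases, so levels were also taken per kilobase of coding sequence. On that scale RPL41, whose coding sequence is only 75 bases long, led with 23580 and 30650, followed by RPL13 (9959 and 11874) and RPL13A (9567 and 12700), whose order differed between the libraries. The small subunit was then led by RPS2, RPS18 and RPS16.

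Most ribosomal protein genes were slightly higher in siKAT7. The median log2 ratio of the 83 genes was 0.24, a 1.18-fold difference, with quartiles of 0.16 and 0.32 and a range of -0.20 to 0.64. Over all 13217 genes compared the median was -0.0048. A ratio above 0 was found in 77 members and below 0 in 6, against 49.3% above 0 over all genes. The counts are deep, and the 95% counting interval lay wholly above 0 for 74 members, below 0 for 6 and across 0 for 3, against 23.0% above and 22.0% below over all genes.

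A gene was called higher or lower when it differed at least 1.2-fold with an interval that excluded a log2 ratio of 0. By that rule 33 of the 83 members were higher, against 13.1% of all genes, and 0 were lower, against 13.4%. At 1.5-fold 1 member was higher, RPS29, against 3.92% of all genes, and 0 were lower, against 3.91%. The 1.2-fold limit runs through a dense part of the distribution: RPL36 at 1.204-fold was inside it and RPL35A at 1.199-fold was outside.

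These counts rest on how the libraries were scaled. The TMM scaling used here assumes that most genes do not differ, and scaling to the total count instead lowered all log2 ratios by 0.11. Under it the median of the members was 0.13, 70 were above 0 and 13 below, 14 were higher and 1 was lower by the 1.2-fold rule. Over all genes, total-count scaling put 34.1% above 0, 7.12% higher and 23.5% lower. The 7 members that changed sign included RPL5, RPL7A, RPL9, RPL36AL, RPS7 and RPS13. The distance between the members' median and that of the other genes was 0.25 under both scalings. Rescaling shifts every log2 ratio by the same amount, so this distance could not change and is no check of the result.

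**Figure D2:**
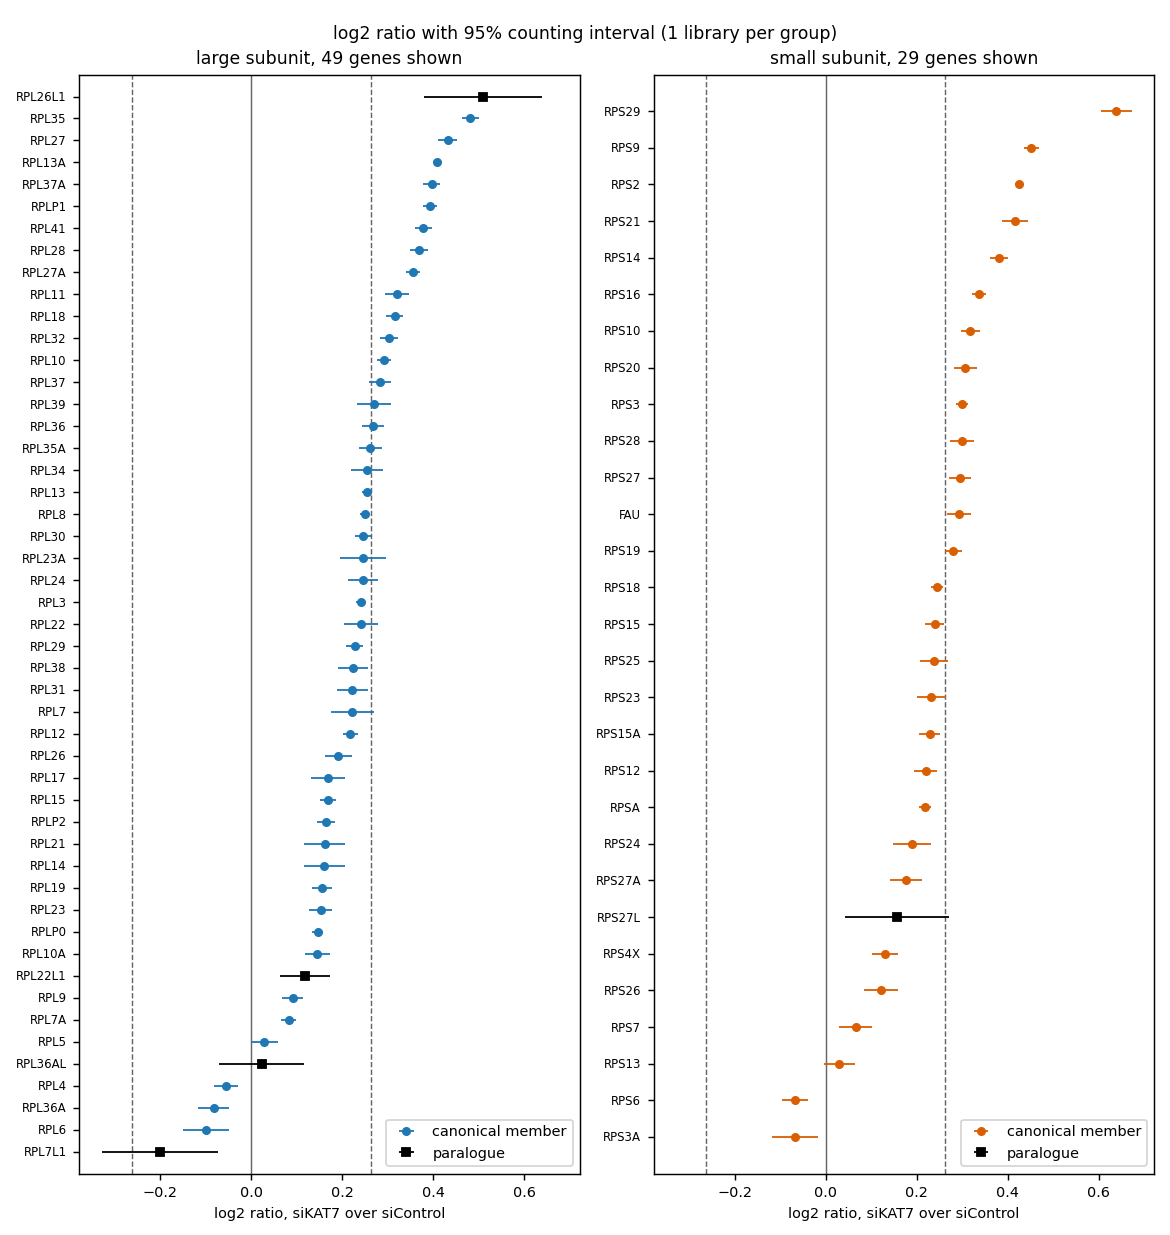
log2 ratio of siKAT7 over siControl for 78 of the 83 genes with 95% counting intervals (1 library per group), large subunit left and small subunit right. Dashed lines mark 1.2-fold and black squares mark paralogues. All but 6 of these genes lie above 0, and RPS29 lies highest at 0.64.

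The highest ratio belonged to RPS29, a small zinc-binding protein of the head of the small subunit. It went from 12062.87 counts in siControl to 17502.2 in siKAT7, a log2 ratio of 0.64 (0.61 to 0.67). The gene lies on chromosome 14 from 49570984 to 49599164 of GRCh38 on the reverse strand. Its start, printed above, lacked the pyrimidine run at the annotated first base. RPL26L1, a near copy of RPL26, was the next at 0.51 (0.38 to 0.64).

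RPL35, RPS9 and RPL27 were also among the 6 highest, all canonical members. RPL35 at the exit of the nascent chain tunnel had 40690.15 and 52914.04 counts, a log2 ratio of 0.48 (0.46 to 0.50). RPS9, a protein of the body of the small subunit, had 48852.64 and 62273.84 counts and a ratio of 0.45 (0.44 to 0.47). RPL27, a large subunit protein, had 32806 and 41237 counts and a ratio of 0.43 (0.41 to 0.45). Its annotated start, not printed above, lacked the pyrimidine run at the first base. None of the intervals of RPL35, RPS9 and RPL27 reached the family median, but these genes were picked by their ratios, so that is no test.

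The 6 lowest members were the only ones below 0 under TMM scaling, and none reached 1.2-fold. RPL7L1 was lowest, with 1115.94 counts in siControl against 904.87 in siKAT7, a log2 ratio of -0.20 (-0.33 to -0.07). RPL6 followed at -0.10 (-0.15 to -0.05), RPL36A at -0.08 (-0.12 to -0.05) and RPL4, which lines the exit tunnel, at -0.06 (-0.08 to -0.03). RPS6, the substrate of the S6 kinases downstream of mTOR, had 21266.99 and 18906.02 counts and a ratio of -0.07 (-0.10 to -0.04). RPS3A, another small subunit protein, was also at -0.07 (-0.12 to -0.02). The direction of RPL36A turned once its readthrough and pseudogene rows were added, to 0.22 (0.19 to 0.25). From their own rows the intervals of all 6 lay below 0, while the lowest bound among the 6 highest was 0.38, for RPL26L1. Both sets were picked by these ratios, so their separation is no test.

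The stalk proteins recruit translation factors to the large subunit, and their genes were all above 0. RPLP1 was called higher, with 69307.06 and 84772 counts and a log2 ratio of 0.39 (0.38 to 0.41). RPLP2, its partner in the stalk dimers, was at 0.16 (0.14 to 0.18), and RPLP0, the base of the stalk, was at 0.15 (0.13 to 0.16). The counting intervals of RPLP1 and of the other stalk genes did not overlap. Member intervals had a median half-width of 0.02, against family quartiles of 0.16 and 0.32. Lack of overlap is therefore nothing particular to the stalk.

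RPL5 and RPL11 bind the 5S ribosomal RNA, and in free form they inhibit MDM2, the ubiquitin ligase of p53. They differed from each other. RPL11 was called higher, with 22234 and 25867 counts and a log2 ratio of 0.32 (0.29 to 0.35), whereas RPL5 had 18701.88 and 17775.99 counts, a ratio of 0.03 and an interval that spanned 0 (-0.00097 to 0.06). RPL5 was one of the members that fell below 0 under total-count scaling.

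RPS27A and FAU are made as fusions to ubiquitin and to a ubiquitin-like protein. FAU, which encodes RPS30, had 21387.46 and 24408.05 counts and was called higher at 0.29 (0.27 to 0.32). RPS27A had 12345.88 and 12999.78 counts and a log2 ratio of 0.18 (0.14 to 0.21).

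Proteins were also grouped by place in the ribosome, in groups of few genes, beside 39.8% of the family and 13.1% of all genes called higher. Of 8 exit tunnel genes 2 were higher, with a median log2 ratio of 0.21. Of 4 genes of mRNA entry and decoding 3 were higher, with a median of 0.30, RPS2 at 0.42 (0.42 to 0.43) being the highest of them. Of 5 genes of the mRNA exit and platform 3 were higher, also with a median of 0.30. RPSA, a platform protein also known as a laminin receptor, was among those not called, at 0.22 (0.21 to 0.23).

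Mutations in some ribosomal protein genes cause Diamond-Blackfan anaemia, and 18 such genes were among the members. All 18 were above 0 with TMM scaling, as were 92.8% of the whole family, and 10 were higher, against 39.8% of the family and 13.1% of all genes. Their median log2 ratio was 0.29. RPL5 and RPS7 of that list fell below 0 with total-count scaling. Many members carry small nucleolar RNAs in their introns. The 28 members with an annotated small nucleolar RNA gene inside had a median of 0.24 with 11 higher, and the 55 without had a median of 0.24 with 22 higher.

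Large and small subunit genes had nearly the same median ratio. Large subunit genes had a median log2 ratio of 0.24, with 46 of 50 above 0 and 17 (34.0%) higher. Small subunit genes had a median of 0.25, with 31 of 33 above 0 and 16 (48.5%) higher. Over all genes 49.3% were above 0 and 13.1% higher. The share called higher was thus larger in the small subunit. The medians lay much closer together than the quartiles of either subunit. Those were 0.16 and 0.30 for the large and 0.18 and 0.34 for the small. In summed counts the large subunit had a log2 ratio of 0.26 (0.26 to 0.27) and the small subunit 0.31 (0.30 to 0.31), and the small subunit went from 39.3% to 40.0% of member counts. The sums weight abundant genes, of which RPS2 was the largest in the small subunit. Without the paralogues the medians were 0.24 (46 genes) and 0.26 (32 genes).

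From their own rows the 5 compared paralogues differed from their partners in ratio, some above and some below. RPL22L1, RPL26L1 and RPS27L were on the same side of 0 as their partners. Adding pseudogene and readthrough rows made the difference of RPL22L1 smaller in size and reversed that of RPL36AL. A difference between paralogue and partner is a ratio of ratios, and library scaling cancels in it. RPL22L1 stood at 0.12 and RPL22, an RNA-binding protein of the large subunit, at 0.24, a difference of -0.12 (-0.19 to -0.06). With the pseudogene rows of RPL22 added the difference was -0.06, given here without an interval. RPL22L1 is a close relative that RPL22 is known to repress. Per coding length it was the most abundant paralogue relative to its partner, with 49.6 per 100 RPL22 in siControl and 45.6 in siKAT7. By the deposited lengths these values were 179 and 164, since the RPL22 model is long, so the order of RPL22 and RPL22L1 depends on the length used.

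RPL26L1 was the only paralogue called higher. It went from 854.53 to 1133.76 counts, a log2 ratio of 0.51, while RPL26 stood at 0.19. The difference was 0.32 (0.19 to 0.45). Per coding length the level of RPL26L1 was 4.96 per 100 RPL26 in siControl and 6.19 in siKAT7, so it stayed a minor form.

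RPS27L, a gene that p53 can induce, had 1227.05 and 1274.16 counts and a log2 ratio of 0.16. Its partner RPS27 was at 0.30, and the difference was -0.14 (-0.25 to -0.02). Per coding length RPS27L was at 4.88 per 100 RPS27 in siControl and at 4.43 in siKAT7. RPL7L1, which is related to RPL7 and is thought to act in large subunit assembly, differed most from its partner. It stood at -0.20 and RPL7 at 0.22, a difference of -0.42 (-0.56 to -0.29), and its level per 100 RPL7 by coding length went from 15.8 to 11.8.

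RPL36AL went from 1920.78 to 1818.48 counts, a log2 ratio of 0.02 that turned to -0.08 under total-count scaling. RPL36A was at -0.08, a difference of 0.11 (0.01 to 0.20). The value of RPL36A is uncertain, because a readthrough model shares its sequence. RPL36A-HNRNPH2 went from 381.61 to 3454.96 counts, a log2 ratio of 3.28 (3.13 to 3.44). Added together with the pseudogenes of RPL36A they gave RPL36A a ratio of 0.22 (0.19 to 0.25), and the difference between paralogue and partner reversed to -0.19.

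The remaining paralogues were near or below detection. RPL3L, the striated muscle form of RPL3, had 16 counts in siControl against 14 in siKAT7, or 0.0139 and 0.0111 per 100 RPL3 by coding length. RPL10L and RPL39L, known from testis, had 0 counts in both libraries, and 0 counts allow up to 0.123 CPM in siControl and 0.132 CPM in siKAT7. A difference in these genes was not detectable at this depth.

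**Figure D3:**
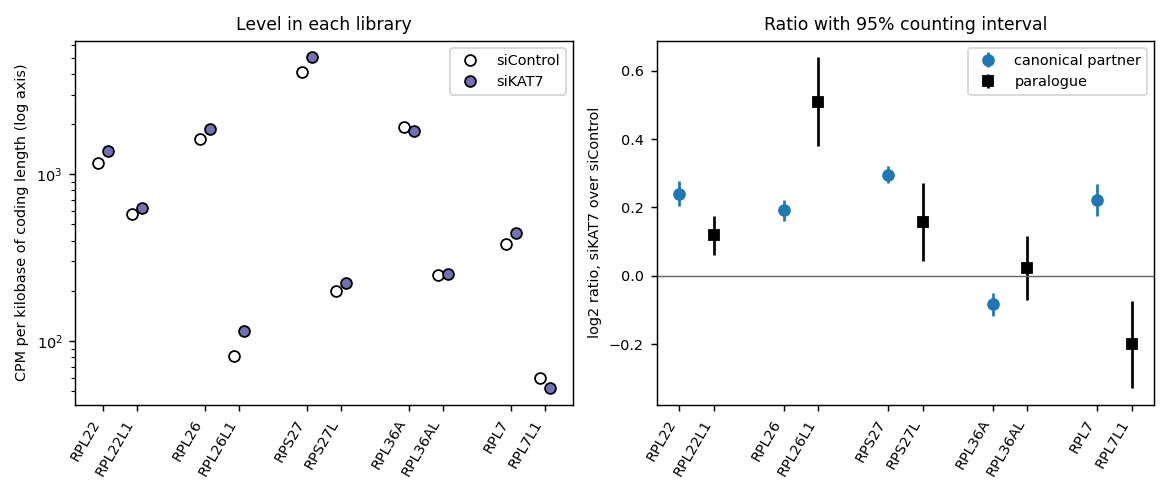
The 5 compared paralogues beside their canonical partners: CPM per kilobase of coding length on a log axis in each library (left) and log2 ratio with 95% counting interval (right). RPL26L1 lies above RPL26 in ratio at 4.96 and 6.19 per 100 in level, and RPL7L1 lies furthest below its partner. RPL36A is drawn without its readthrough model.

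Ribosomal protein genes have many processed pseudogenes, and RSEM splits a read among the models it matches. The table names 1145 pseudogene rows after 78 of the members. Counts were not whole (to within 0.005) in 70 members, a sign of such division, and whole in 16. Pseudogene and readthrough rows together held 0.191% of named-gene counts in siControl and 0.210% in siKAT7, small beside the members' share. For 7 compared members more than 5% of the summed counts lay outside their own row.

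Adding those rows moved the log2 ratio by more than 0.1 in 2 members. RPL36A moved as given above. RPL23A had 6116.19 and 6755.17 counts of its own and 5433.6 and 5061.07 in 91 pseudogene rows, and its ratio went from 0.25 to 0.13 (0.10 to 0.17). RPL17 shares reads with RPL17-C18orf32, which had 2778.78 and 2444.08 counts and a ratio of -0.08, and the sum brought RPL17 from 0.17 to 0.12. RPS10 was at 0.32 both alone and with RPS10-NUDT3, which had 1771.7 and 1994.73 counts. RPS2 went from 0.42 to 0.40 and RPL22 from 0.24 to 0.18. RPL23A and RPL22 were named after their values were seen.

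Gene length was weighed next, because ratios over all genes fell with length. Among other genes the median log2 ratio was 0.39 at up to 500 bases of deposited length (170 genes), 0.15 at 500 to 1000 (982), 0.09 at 1000 to 1500 (1219), 0.01 at 1500 to 2500 (3125), -0.04 at 2500 to 5000 (4822) and -0.06 above 5000 (2816). The members in the same classes stood at 0.27 (11 genes), 0.23 (46), 0.24 (13), 0.28 (4), 0.19 (7) and 0.22 (2). Medians of the members thus varied little between the classes of deposited length, while those of other genes fell with each step. In the shortest class the members lay below the other genes, and in the others above them.

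**Figure D4:**
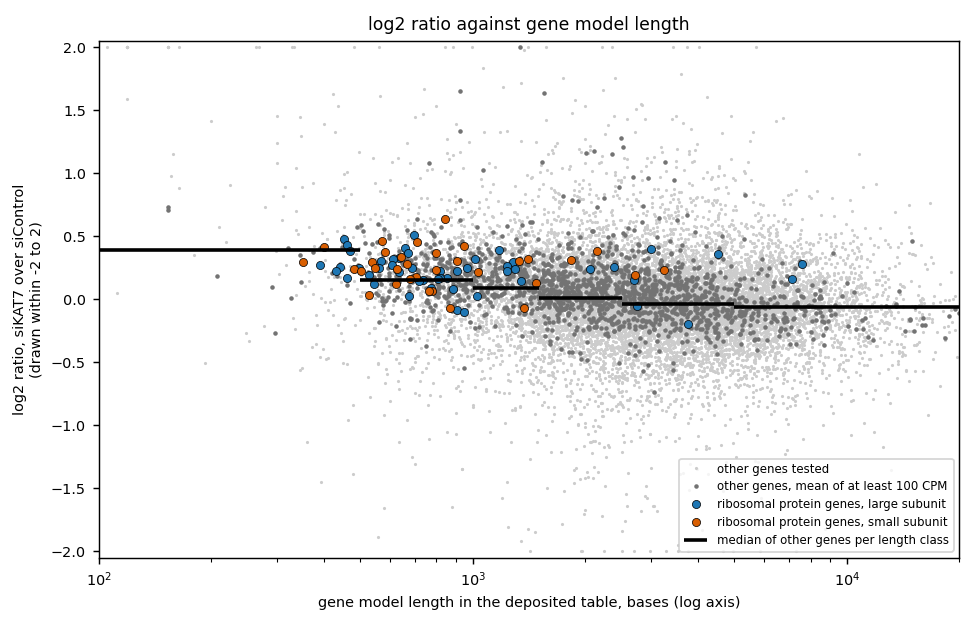
log2 ratio against deposited gene length (log axis) for members (blue large subunit, orange small subunit) and for other genes compared (grey, darker at 100 CPM or more, values drawn within -2 to 2). Black lines give the median of other genes per length class, which falls from 0.39 to -0.06. Member medians in these classes of deposited length lie between 0.19 and 0.28. Several members with long deposited models have short coding sequences.

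Short and abundant genes came closest to the ribosomal protein genes. Among genes of up to 1500 bases and at least 100 CPM, 67 members had a median of 0.25 with 27 higher, and 481 other genes had a median of 0.18 with 30.8% higher. At 300 CPM or more, the medians were 0.25 for 63 members and 0.19 for 153 other genes, of which 35.9% were higher. Most of the distance from all genes was shared by other short, abundant mRNAs, and 46 of the 67 members lay above the median of those. Among genes over 1500 bases and at least 100 CPM, 12 members were at 0.25 and 1198 other genes at 0.01. Several of these members have long deposited models but short coding sequences, such as RPL27A with 4535 deposited and 444 coding bases. With more than 600 coding bases and at least 100 CPM, 22 members were at 0.16 and 1291 other genes at 0.03.

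The size of the remaining gap depended on how length was defined. By coding length up to 600 bases and at least 300 CPM, 55 members had a median of 0.26 and 91 other genes 0.19. With more than 600 coding bases the members' median was lower, at 0.19 (20 genes), and that of 292 other genes was 0.07. By the union of all annotated exons, only 6 members were up to 1500 bases and at least 300 CPM, at 0.34, and 54 other genes were at 0.28. That last value exceeds the median of the family as a whole.

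Within the family, ratios varied with several features that are tied to each other. Over the 83 genes the correlation with log2 ratio was -0.39 for coding length (Pearson, log scale; Spearman -0.33), 0.38 for GC content (0.41) and 0.41 for mean CPM (0.46). For deposited length it was only -0.18 (-0.19). Members with up to 300 coding bases had a median of 0.30 (10 genes, 8 higher), and those over 600 had 0.16 (23 genes, 5 higher). Other genes in these 2 classes had medians of 0.15 (28.4% higher) and -0.03 (10.1% higher), so they fell with coding length too. Members of at most 45% GC had a median of 0.18 (17 genes), those of 55% to 60% GC had 0.32 (11 genes), and those above 60% had 0.27 (7 genes). Other genes in the same GC classes had medians of -0.05, 0.03 and 0.07. Members at 300 to 1000 CPM had a median of 0.19 (27 genes) and those at 1000 CPM or more 0.29 (48 genes). Other genes at these levels had medians of 0.09 and 0.10. The genes share their libraries and are not independent replicates, so these are descriptions.

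The pyrimidine run was also set beside the ratios. The 48 compared members with the run had a median log2 ratio of 0.25, from -0.08 to 0.48, and the 20 members with a start but no run had a median of 0.16, from -0.20 to 0.64. Both the highest and the lowest member thus lacked it, and RPS6 and RPS3A had it and were below 0. RPL36A had it too, at -0.08 from its own row and 0.22 with its readthrough and pseudogene rows. Among other genes compared, 682 with the run had a median of 0.03 and those without one -0.02. The members without the run included the paralogues RPL26L1, RPS27L, RPL36AL and RPL7L1. None of these groups was matched for length or abundance, and whether the run bears on the ratio was not tested.

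Other genes of translation were described from lists beside the same background. Of 20 further genes with TOP mRNAs, mainly translation factors, 19 passed the filter, with a median log2 ratio of 0.02. Among them 2 (10.5%) were higher and 0 lower, beside 13.1% and 13.4% of all genes. RACK1, a scaffold protein bound to the small subunit, was among the higher, at 0.36 (0.34 to 0.37). These 19 genes are longer, and the 6 of them with up to 1500 bases and at least 100 CPM had a median of 0.18.

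Regulators of TOP mRNA translation had a median of -0.23 over 11 genes, with 1 higher and 3 lower. Over all genes 13.1% were higher and 13.4% lower. The regulators are long genes, with a median deposited length of 5072 bases, and other genes above 5000 bases had a median of -0.06. EIF4EBP1, a translational repressor controlled by mTOR, was higher at 0.27 (0.21 to 0.33). EIF4EBP2 at -0.37 (-0.47 to -0.26), the S6 kinase gene RPS6KB1 at -0.43 (-0.66 to -0.21) and TIA1, which binds TOP mRNAs under stress, at -0.57 (-0.95 to -0.21) were lower. Of 8 chaperones and ubiquitin enzymes that act on free ribosomal proteins, 0 were higher and 1 was lower, beside the same shares over all genes. The lower one was HEATR3, which helps import RPL5, at -0.38 (-0.69 to -0.08). The median of these 8 genes was 0.03.

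The mitochondrial ribosome has its own proteins, also encoded in the nucleus. Of 78 such genes 13 (16.7%) were higher and 4 lower, near the 13.1% of all genes called higher, with a median log2 ratio of 0.09 that turned to -0.02 under total-count scaling. These genes are longer than the members (median deposited length 1334.5 against 778 bases) and less abundant (median 68.7 against 1152 CPM). The 11 of them with up to 1500 bases and at least 100 CPM had a median of 0.12, with 36.4% higher. In that class 27 of 67 members were higher. MRPL50 was among the higher ones at 0.47 (0.11 to 0.83), and MRPS31 and MRPL1 among the lower at -1.13 (-1.73 to -0.58) and -0.74 (-1.34 to -0.17). Nuclear-encoded subunits of the respiratory chain, listed by symbol, had a median of 0.17 over 75 of 82 genes, with 20 (26.7%) higher and 4 lower. Like the members they are short, with a median deposited length of 804 bases. They are less abundant than the members, with a median of 154 CPM against 1152. ATP5IF1, which the symbol rule takes in although it encodes an inhibitor of the ATP synthase, was at 0.59 (0.53 to 0.65). COX6A1 was at 0.44 (0.41 to 0.48), whereas ATP5PB was at -0.51 (-0.65 to -0.38). The 35 listed genes with up to 1500 bases and at least 100 CPM had a median of 0.20, beside 0.25 for the 67 ribosomal protein genes in that class. At 300 CPM or more, 7 listed genes had a median of 0.23, beside 0.25 for 63 ribosomal protein genes.

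**Figure D5:**
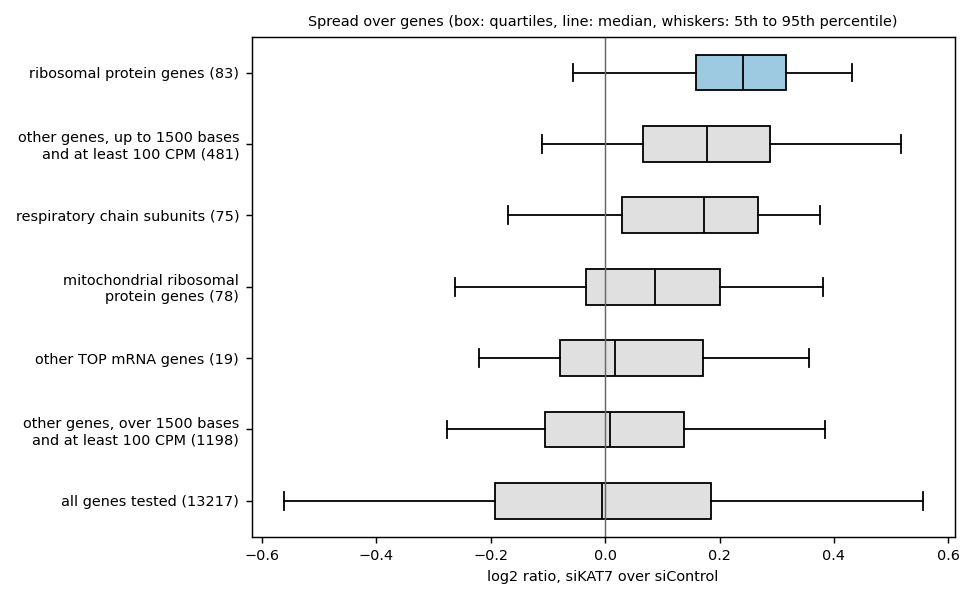
Spread of log2 ratios over genes (box for quartiles, line for the median, whiskers for the 5th to 95th percentile) in ribosomal protein genes, other short and abundant genes, comparison lists and all genes. The median of the 83 ribosomal protein genes is 0.24, that of 481 other short and abundant genes 0.18, and that of all genes -0.0048.

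In the authors' deposited table, which compares the same 2 libraries, 70 of the 83 genes have a log2 fold above 0 and 13 below. The median of the family in the authors' deposited table is 0.13, and the median of all genes compared there is -0.11. Of the 86 members, 0 are marked significant in the authors' deposited table, against 196 (1.48%) of all genes compared. The marked genes in the authors' deposited table have log2 folds of at least 1.01 in size, and the members reach at most 0.53. By adjusted p alone, in the authors' deposited table, 74 of the 83 members are under 0.05, as are 40.6% of all genes compared. Those p-values compare the reads of 2 libraries, not the conditions.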

How the data were processed

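Total RNA of 2 HCT116 cultures, siControl and siKAT7, was sequenced, with 1 library per group. The authors deposited a table of expected counts per gene, which need not be whole, and a comparison table with a fold, a log2 fold and p-values. Per the submitters' processing notes RSEM 1.3.3 and GRCh38.p13 were used. The aligner, strand setting and RNA selection: not given in the sources used here. The table's 60954 rows include 331 without a gene name (1.11% of counts in siControl, 1.67% in siKAT7), which were left out. The knockdown column is named for HBO1, an alias of KAT7.

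Expected counts were rounded and scaled by TMM (edgeR 4.0.16, R 4.3.3; factors 1.04 and 0.964). The log2 ratio used CPM with a prior count of 0.5, for genes averaging 1 CPM or more. Its 95% interval (exact, Clopper-Pearson) used how a gene's counts divided between libraries (scipy 1.17.1), and pair differences used a normal interval on the log scale. Without replicates no test between the groups was made. Code was tested on simulated data. Alternatives were total-count scaling, DESeq2 1.42.0 size factors, TMM without the members, a prior count of 5, other filters, folds and lengths, the authors' folds, and adding pseudogene and readthrough rows.

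Coding length, GC content and coordinates came from GENCODE 29 (58516 of 60623 genes found), and starts from RefSeq on GRCh38.p14. Named members were the stalk, 5S-binding and ubiquitin-fusion genes, RPSA, RPS6, the paralogues and partners, the 6 highest and 6 lowest ratios with at least 100 counts, the 3 highest levels per length in each subunit and those with readthrough models, plus up to 4 called genes per list. Further members named were chosen after their values were seen. Members and lists were chosen with earlier results of these data known. Some genes that this rule takes are not reported here.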

Additional observations from a re-analysis of the deposited data

How the results depend on the processing

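With 1 library per group no replicate could be left out. No paired analysis was possible because the groups share fewer than 2 replicate numbers. Total-count scaling gave a median log2 ratio of 0.13 for all members, 0.13 for the large and 0.14 for the small subunit, with 14 higher and 1 lower; the authors' folds gave 0.13, 0.13 and 0.14. DESeq2 size factors, TMM without the members, a prior count of 5, no filter, a minimum of 10 CPM and leaving out the paralogues changed none of these values beyond the set limits, and neither did a 99% interval for the counts. At 1.5-fold 1 member was higher, and with no fold limit 74 were higher and 6 lower. The share of counts in siControl was 14.5% without mitochondrially encoded genes, 13.4% of all rows and 13.7% with pseudogenes and readthrough rows added, and in siKAT7 16.3%, 14.97% and 15.4%. That addition reversed the difference between RPL36AL and RPL36A to -0.19. For other genes of up to 1500 deposited bases and at least 100 CPM the median was 0.18. With the same CPM limit it was 0.19 at a limit of 1000 bases and 0.25 at up to 1500 bases by the union of exons. Coding length was added after seeing the data. Depth was not the limit for most members, whose intervals had a median half-width of 0.02, but the spread between cultures is unknown.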
